A study of Mus musculus with 10 samples.

Results

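The 5 tumours described here are the untreated pancreatic tumours of a series of 10 mouse tumour libraries: 3 of the model labelled KrasT and 2 of the model labelled MycT. They were chosen by their labels alone, as the tumours whose hosts had received no doxycycline (0 days). All 10 tumours had been grown as transplants in the pancreas of athymic nude hosts, in which the missing thymus leaves few T cells, and whole tissue was frozen. The other 5 tumours (3 KrasT and 2 MycT) came from hosts given doxycycline at 100 ug/ml with 2.5% sucrose in the drinking water for 14 days, and serve here only to ask whether a difference between the models was also present then. By the title of the series, the study concerns tumour cells that persist without their oncogenic drivers, so the untreated tumours are those in which the driver is taken to be on. How the transgenes are built, which cells express them, whether a model is 1 tumour line or several and how old the hosts were is not said in the labels, which name no sucrose for untreated hosts.

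RAS proteins are small GTPases that, when mutated as in most pancreatic ductal carcinomas, stay bound to GTP and drive the RAF-MEK-ERK kinase chain. ERK activity is followed by induction of its own inhibitors (the Dual-specificity phosphatases, Sprouty and Spred proteins), of ETS and FOS family factors and of EGF family ligands. MYC is a transcription factor that binds DNA with its partner MAX, most often at the E-box CACGTG, and is known for raising ribosome assembly, nucleotide synthesis and entry into the cell cycle. The comparison asks what tumours driven by each of these oncogenes express while the oncogene is on.

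Levels are in scaled FPKM (fragment counts corrected for gene length and library size, after the 5 libraries were brought to 1 scale). They are listed in the order KrasT 1, 2 and 3, then MycT 2 and a MycT library without a number, whose column name carries an animal number that matches no label. Each tumour is 1 animal by its label, so the spread is between animals. Before scaling, summed FPKM ran from 789672 to 1018968 in KrasT and was 1126800 and 1517332 in MycT, and 11208 to 11769 genes reached 1 FPKM. KrasT 1 stood apart from the other 2 KrasT tumours. Across 12480 genes its log2 levels correlated with theirs at r = 0.813 and 0.83, against 0.962 between KrasT 2 and 3, and with the MycT tumours at r = 0.768 and 0.812. The 2 MycT tumours correlated at r = 0.878. Genes are not independent replicates, so these values only describe the libraries. Counts over whole gene lists are therefore also given without KrasT 1 where that changes them. The 2 models were deposited in separate tables, so model and table cannot be told apart.

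Of 12478 genes tested, 880 (7.05%) differed between the models at an adjusted p under 0.05 in limma, a linear model with a spread shared across genes: 418 (3.35%) were higher in KrasT and 462 (3.7%) higher in MycT. These genes are called "higher" below. At an unadjusted p under 0.05 there were 3614 genes. The KrasT and MycT values did not overlap for 5941 genes (47.6%), among them all 880. The median size of a called difference was 2.55 on the scale log2(scaled FPKM + 1), and 80 genes differed by 4 or more. Without KrasT 1, 3053 of 12061 genes (25.3%) were called, 1604 (13.3%) higher in KrasT and 1449 (12%) higher in MycT, and these held all 880. The calls rested on the other libraries: limma called 7 genes without KrasT 2, 11 without KrasT 3, 118 without the unnumbered MycT tumour and 0 without MycT 2, with 2314 at an unadjusted p under 0.05 in that last fit. Fits that leave 1 MycT tumour assume that it varies like the KrasT tumours. The split depended on the scaling: with FPKM as deposited, 574 genes were higher in KrasT and 368 in MycT, and with equal sums outside the ribosomal protein genes 738 and 368. The median over all genes was 0.04 as scaled here and 0.20 and 0.31 with those scalings, so differences under either are relative to that shift.

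**Figure D1:**
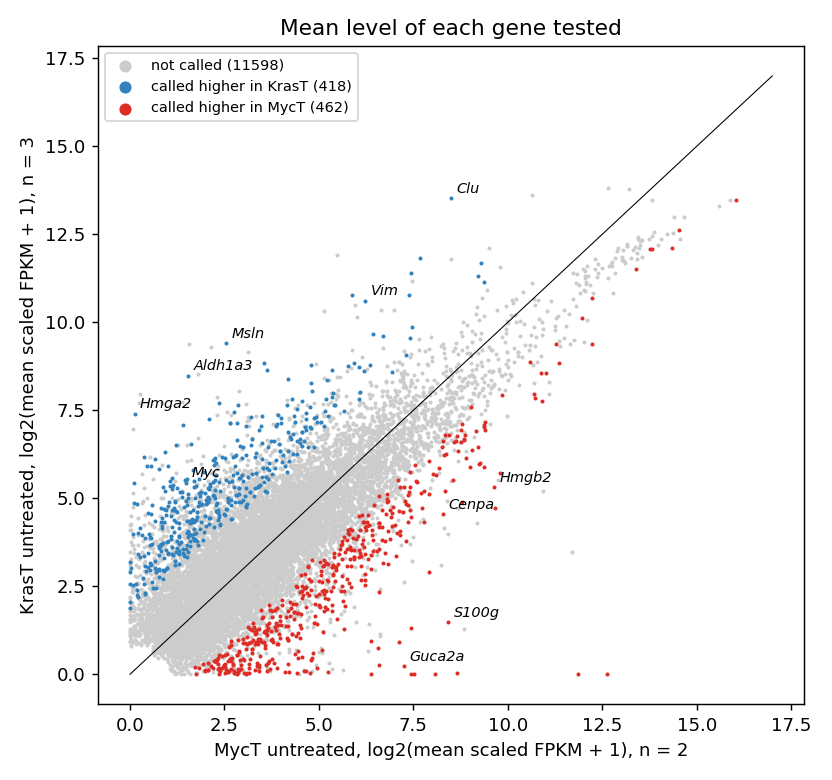
Mean level of each of the 12478 genes tested in untreated MycT tumours (horizontal, n = 2) and untreated KrasT tumours (vertical, n = 3), both as log2(mean scaled FPKM + 1). Blue points are the 418 genes higher in KrasT, red points the 462 higher in MycT and grey points the rest; the line marks equal levels.

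Genes of the MYC and RAS families were read first. Myc, the transcription factor for which the second model is named, was at 24.4, 68.8 and 34.8 scaled FPKM in KrasT and only 0.417 and 3.16 in MycT. It was thus higher in the KrasT tumours, by 4.04 ± 0.65 (log2, ± SE, limma adjusted p = 0.0317). Whether fragments of a transgene would be counted under the mouse symbol is not stated, so the low Myc values say nothing about the transgene. Hras was at 42.1, 40.5 and 38.0 in KrasT and 37.0 and 66.9 in MycT, overlapping, and Nras at 26.6, 29.6 and 36.1 and 15.2 and 20.7, not overlapping but not called (adjusted p = 0.220). Of 14 RAS genes and regulators tested, 1 was called (7.05% of all genes were) and 4 without KrasT 1 (25.3% of all genes). The 1 was Rras, a RAS relative linked to integrin adhesion, at 97.7, 147 and 123 in KrasT and 8.22 and 11.1 in MycT. That is more than the spread in either model (adjusted p = 0.0172). Of 13 genes of the MYC network, Myc was higher in KrasT and Mlxipl, the glucose-sensing MLX partner also called ChREBP, higher in MycT (0.155, 0.0568 and 0.0931 against 6.95 and 6.17, adjusted p = 0.0234); without KrasT 1, 2 were called in each direction. MYC's partner Max was at 24.3, 36.1 and 35.6 and 32.7 and 34.3, without separation. Mycl was not called (adjusted p = 0.719), and Mycn, at no more than 0.951 in any tumour, was not tested.

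Genes that ERK signalling induces were higher in KrasT as a group. Of 22 listed, 12 were higher in KrasT and 0 in MycT, against 3.35% of all genes tested, and the median difference was 2.97 (0.04 over all genes). All 22 differences were positive. Without KrasT 1, 19 of 21 were called, against 13.3% of all genes. Among the feedback inhibitors, 6 of 10 were called. Dusp6, the cytoplasmic phosphatase that removes phosphate from ERK itself, was at 101, 189.5 and 128 scaled FPKM in KrasT and 1.33 and 9.29 in MycT, a difference of 4.80 ± 0.68 (limma adjusted p = 0.0265). Dusp5, its nuclear counterpart, was at 10.52, 90.0 and 76.1 and 0.149 and 0.768. KrasT 1 was the lowest KrasT tumour for both, yet far above either MycT tumour. Spry2, a Sprouty inhibitor of receptor signalling to RAS, was at 27.9, 44.0 and 31.2 and 3.70 and 2.27 (adjusted p = 0.0235). Among the induced factors and effectors, 6 of 12 were called. Etv4, an ETS factor of the PEA3 group, was at 34.7, 43.6 and 60.6 in KrasT and 0.198 and 2.16 in MycT (difference 4.57 ± 0.53). Epha2, an ephrin receptor, was at 22.04, 161 and 92.8 and 0.188 and 3.91. Ccnd1, the cyclin that ERK induces at the start of the cell cycle, was not called: at 155, 268 and 232 and 192 and 41.2, MycT 2 lay among the KrasT tumours (adjusted p = 0.269). Fosl1 was not called at 2.07, 21.3 and 9.25 in KrasT and 0.0469 and 0.108 in MycT (adjusted p = 0.0741), with KrasT 1 again the lowest of its group.

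Plaur, the receptor that holds urokinase at the cell surface, and Emp1, a membrane protein of epithelial cells, are shown with the 250 bases before their start sites because they are the 2 members called higher in KrasT whose promoter holds TGANTCA, the motif bound by FOS and JUN dimers (AP-1). Plaur was at 99.2, 622 and 476 scaled FPKM in KrasT and 2.01 and 20.5 in MycT (5.27 ± 1.08, limma adjusted p = 0.0437), and Emp1 at 381, 367 and 448 and 24.5 and 55.4 (3.39 ± 0.43, adjusted p = 0.0234). The sequences are those of RefSeq on GRCm38.p6, a later build than the authors' mm9, written 5′ to 3′ on the gene's own strand, here plus, with the motif in capitals. The motif reads the same on both strands and does not overlap CACGTG. It begins 69 bases before the start of Plaur, and 145 and 25 bases before that of Emp1.
Plaur, chr7:24462233-24462482: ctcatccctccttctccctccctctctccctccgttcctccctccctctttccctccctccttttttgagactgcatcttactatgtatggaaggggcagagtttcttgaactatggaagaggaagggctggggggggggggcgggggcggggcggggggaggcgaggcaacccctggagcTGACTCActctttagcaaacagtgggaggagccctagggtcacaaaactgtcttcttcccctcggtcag
Emp1, chr6:135362681-135362930: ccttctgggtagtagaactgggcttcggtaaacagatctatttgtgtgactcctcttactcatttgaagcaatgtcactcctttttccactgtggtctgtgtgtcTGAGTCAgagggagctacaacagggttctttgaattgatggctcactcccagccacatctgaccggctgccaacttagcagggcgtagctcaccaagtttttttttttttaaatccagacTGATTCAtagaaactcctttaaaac
The window of 250 bases before to 50 after the start held the motif in 7.81% of all 32851 promoters of the table. It held the motif in 5.53% of the promoters of the genes tested, of which 79.3% matched a promoter. Of the 12 listed genes called higher in KrasT, 10 matched a promoter and 2 of these held the motif. A share for the list is not given, because only 68.2% of its tested genes matched a promoter. A match describes letters only.

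EGF family genes, whose products bind ERBB receptors on the same or neighbouring cells, went the same way. Of 10 tested, 4 were higher in KrasT and 0 in MycT (median difference 2.85), against 3.35% of all genes higher in KrasT, and 7 of 10 were called without KrasT 1, against 13.3%. Areg (amphiregulin) was at 44.2, 171 and 86.7 in KrasT and 3.06 and 9.21 in MycT. Hbegf, the heparin-binding ligand, was at 75.9, 177 and 167 and 1.94 and 8.69, and Ereg (epiregulin) at 5.31, 21.2 and 23.8 and 0.0357 and 0.348. The differences of these 3 ligands were 3.77, 4.63 and 3.68, with limma adjusted p of 0.0361, 0.0257 and 0.0369. Errfi1, an inhibitor that binds the EGF receptor, was the remaining called gene, at 52.8, 171 and 193 and 3.47 and 8.81. The receptors were not called: Egfr was at 8.27, 8.73 and 12.8 and 0.511 and 5.18, and Erbb3 at 0.0636, 34.1 and 32.0 and 1.34 and 9.001, where KrasT 1 alone lacked it.

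The 15 largest differences on the KrasT side, among genes that averaged at least 10 scaled FPKM there, were led by Hmga2, an architectural chromatin protein of embryonic tissue. It was at 106, 132 and 266 in KrasT and 0.0353 and 0.142 in MycT, a difference of 7.17 ± 0.48 (limma adjusted p = 0.00573). Every KrasT tumour had it at a high level and neither MycT tumour reached 1. Aldh1a3, which makes retinoic acid, was at 52.1, 536 and 480.0 and 0.0878 and 3.70. Msln (mesothelin), a surface protein of mesothelium and many pancreatic cancers, was at 178, 1218 and 633 and 2.06 and 7.56. Clu (clusterin), a secreted chaperone, was the most abundant of the 15, at 4714, 17763 and 13008 and 51.3 and 669.6. The 2 MycT tumours were far apart for it, but both lay below all KrasT tumours. Prkg2 (a cyclic GMP kinase), Ptprn (a secretory granule protein) and Nptx1 (neuronal pentraxin) had narrow KrasT ranges, at 115, 114 and 175, 69.6, 93.2 and 72.7 and 37.8, 58.4 and 30.8, against 0.531 and 2.76, 0.147 and 1.64 and 0.110 and 0.0475 in MycT. Kcnn4 (a calcium-activated potassium channel), Itga3 (the integrin alpha 3 chain), Plat (tissue plasminogen activator) and Cdh13 (a lipid-anchored cadherin) also belonged to the 15. Synpr, Tnfrsf23, Plaur and Tnnt2 made up the rest. Tnnt2, cardiac troponin T, was at 128, 35.2 and 39.8 in KrasT. It was highest in KrasT 1, the tumour that also carried muscle RNA (below).

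**Figure D2:**
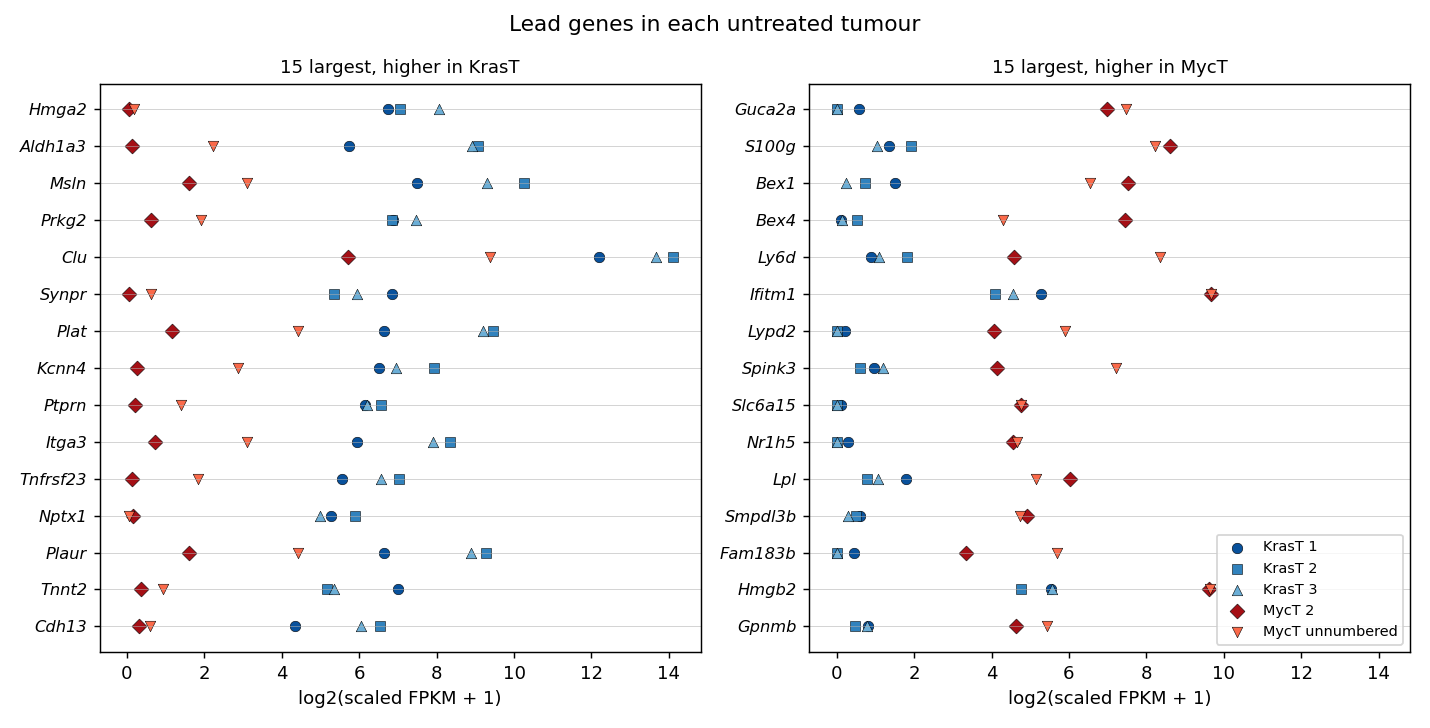
Level in each of the 5 untreated tumours, as log2(scaled FPKM + 1), of the 15 genes with the largest called difference in each direction, small RNAs, clone names and genes averaging under 10 scaled FPKM in the higher group left out. In the left panel the 3 KrasT tumours (blue) lie right of both MycT tumours (red) for every gene, from Hmga2 at the top to Cdh13; in the right panel the order is the reverse, from Guca2a to Gpnmb.

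Mesenchymal genes were higher in KrasT for 6 of 17 tested and for 0 in MycT (median difference 2.55), and without KrasT 1 for 7 of 16, against 3.35% and 13.3% of all genes. Vim (vimentin), the intermediate filament of mesenchymal cells, was at 2149, 1387 and 1143 in KrasT and 33.9 and 113 in MycT (4.58 ± 0.58, limma adjusted p = 0.0235). Tgfb1, a cytokine that induces the mesenchymal state in epithelial cells, was at 83.3, 98.1 and 80.0 and 3.50 and 10.3. Twist1, a factor that represses E-cadherin, was at 26.5, 18.1 and 12.6 and 0.148 and 1.42 and was the only 1 of 7 such factors called; Snai1, Zeb1 and Zeb2 overlapped between the models. Of 15 matrix proteases and inhibitors tested, 3 were higher in KrasT and 0 in MycT. Without KrasT 1 it was 4 and 1 of 14, where 25.3% of all genes were called. They were Plat, at 98.3, 697 and 582 and 1.24 and 20.3, the membrane-bound collagenase Mmp14, at 119, 189 and 179 and 3.17 and 25.1, and its partner Timp2, at 301, 189.6 and 161 and 14.1 and 30.5. Other cells of the piece make these proteins too. In whole tissue, fewer cells of a type and less RNA per cell cannot be told apart. Summed over 26 fibroblast and matrix genes, the level was 1650.6, 656.9 and 963.1 in KrasT and 114.5 and 1252.3 in MycT. It was thus low in MycT 2 and not in the unnumbered MycT tumour, and its part in these results was not tested. None of the 25 fibroblast genes tested was called (median difference 0.78), nor any of 24 without KrasT 1.

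Among 17 transcription factors of pancreas and gut, 3 were higher in KrasT and 1 in MycT (8 and 2 without KrasT 1), against 7.05% of all genes called (25.3%). Gata6, a factor of pancreatic and gastric epithelium, was at 14.2, 18.98 and 16.9 in KrasT and 0.0704 and 1.53 in MycT. Sox9, which marks ductal cells, was at 19.8, 19.3 and 11.9 and 1.33 and 1.61, and Foxa2, an endoderm factor, at 26.3, 40.1 and 19.4 and 3.77 and 6.27. Their limma adjusted p were 0.0270, 0.0271 and 0.0419. The paralog Foxa1 went the other way, at 6.12, 2.25 and 4.19 and 66.6 and 26.7 (−3.13 ± 0.56, adjusted p = 0.0355). So did Grhl2, a factor that maintains epithelial junctions, at 0.0410, 0.124 and 0.0542 and 6.51 and 5.02: it was near 0 in every KrasT tumour. Of 11 progenitor markers, 4 were higher in KrasT and 0 in MycT, and 5 and 1 without KrasT 1, against the same shares. Cd44, a hyaluronan receptor, was at 168, 217 and 172 and 12.8 and 28.2, and Nes (nestin) at 43.7, 17.5 and 21.6 and 1.29 and 4.84; Cd24a and Aldh1a3 were the others. Of 7 oncofetal genes tested, Hmga2 and Igf2bp2 (7.78, 30.1 and 37.7 against 0.684 and 1.83), an RNA-binding protein, were higher in KrasT. Without KrasT 1 it was 3 of 7, against 3.35% and 13.3% of all genes. The list as a whole had a median of −0.84, with 3 differences positive and 4 negative. Plagl1, an imprinted zinc finger gene, was higher in MycT (0.221, 0.207 and 0.318 against 11.3 and 7.25, adjusted p = 0.0234).

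In MycT, the genes of ribosome assembly stood higher. Of 39 genes of ribosome biogenesis and nucleotide synthesis, 14 were higher in MycT and 0 in KrasT, against 3.7% of all genes tested. All 39 differences were negative (KrasT minus MycT), with a median of −1.69. Without KrasT 1, 22 of 39 were called, against 12%. The called genes were mostly nucleolar: 13 of 25 assembly genes against 1 of 14 for nucleotide synthesis (16 and 6 without KrasT 1), a contrast that was not itself tested. Nop56, a core protein of the particles that methylate ribosomal RNA, was at 47.7, 38.9 and 21.8 in KrasT and 326 and 321 in MycT (−3.20 ± 0.42, limma adjusted p = 0.0242). Dkc1 (dyskerin), which makes pseudouridine in ribosomal RNA, was at 10.99, 10.96 and 9.77 and 64.1 and 66.3. Npm1 (nucleophosmin) was at 767, 628 and 624 and 1901 and 3057. The MycT tumours were alike for Nop56 and Dkc1 and apart for Npm1, and above all KrasT tumours for each. Shmt1, which makes one-carbon units for nucleotides, was at 2.17, 4.11 and 2.16 and 56.8 and 44.0, the largest difference of the list (−3.78 ± 0.41). Odc1 (ornithine decarboxylase), a long-known MYC target, was at 46.2, 95.6 and 98.1 and 272 and 309.6 without being called (adjusted p = 0.0522; 0.0226 without KrasT 1).

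The E-box CACGTG, which is its own reverse complement, was found in 9 of 37 promoters (24.3%) of this list, of which 33 of 39 genes (84.6%) matched a RefSeq promoter. It was found in 7.15% of all 32851 promoters and in 9.96% of those of the genes tested, of which 79.3% matched. For mitosis genes the share was 5.56% (1 of 18 promoters) and for DNA replication genes 11.5% (3 of 26). Within the list, 1 of 11 genes higher in MycT with a promoter held it (Wdr43), and 7 of 22 others. The 250 bases before the start are shown for Impdh2, the rate-limiting enzyme of guanine nucleotide synthesis, and Nop2, an RNA methyltransferase of the nucleolus, as members on each side of the list that hold it there, on the plus strand with the motif in capitals.
Impdh2, chr9:108560186-108560435: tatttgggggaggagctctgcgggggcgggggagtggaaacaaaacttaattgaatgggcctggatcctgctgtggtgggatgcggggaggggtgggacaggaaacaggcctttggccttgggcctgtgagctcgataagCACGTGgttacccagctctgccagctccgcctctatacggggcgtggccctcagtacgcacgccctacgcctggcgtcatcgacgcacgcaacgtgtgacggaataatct
Nop2, chr6:125131633-125131882: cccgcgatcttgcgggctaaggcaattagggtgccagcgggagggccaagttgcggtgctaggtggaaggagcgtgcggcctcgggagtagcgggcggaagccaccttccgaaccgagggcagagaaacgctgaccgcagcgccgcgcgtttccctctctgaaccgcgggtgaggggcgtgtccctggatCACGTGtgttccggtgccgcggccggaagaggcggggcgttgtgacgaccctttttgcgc
The motif begins 110 bases before the start of Impdh2 and 60 before that of Nop2. Neither gene was called: Impdh2 was at 58.5, 103 and 59.7 in KrasT and 236 and 186 in MycT (limma adjusted p = 0.0644), and Nop2 at 8.42, 18.2 and 9.64 and 33.0 and 19.3 (adjusted p = 0.193). For Impdh2 both MycT tumours lay above all KrasT tumours; for Nop2 they did so by little.

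Genes of cell division were higher in MycT. Of 22 mitosis genes, 18 were higher in MycT and 0 in KrasT, where 3.7% of all genes were higher in MycT. All 22 had both MycT tumours above all KrasT tumours (2969 of 12478 genes did, 23.8%). The median difference was −2.61, and without KrasT 1, 21 of 22 were called, where 12% of all genes were higher in MycT. Cdk1, the kinase that starts mitosis, was at 25.7, 11.7 and 15.5 in KrasT and 108 and 136 in MycT (−2.79 ± 0.43, limma adjusted p = 0.0301). Cenpa, the histone that marks centromeres, was at 39.4, 10.1 and 17.8 and 255 and 371, the largest difference of the list. Mki67, the proliferation antigen Ki-67, was at 5.29, 2.80 and 3.11 and 30.1 and 15.7 (adjusted p = 0.0431). KrasT 1 was the highest of the KrasT tumours for all 3. Of 26 DNA replication genes, 17 were higher in MycT and 0 in KrasT, and 24 of 26 without KrasT 1, against the same shares. All 26 were again separated (median −2.28). Mcm5, part of the replicative helicase, was at 4.40, 5.67 and 3.70 and 62.4 and 50.3, and Prim1, the primase subunit that starts each fragment, at 8.29, 4.26 and 3.48 and 74.8 and 72.8. The differences were −3.37 ± 0.37 and −3.63 ± 0.44. Hmgb2, a chromatin protein of dividing cells, was among the 15 largest on the MycT side, at 45.1, 25.9 and 46.0 and 779 and 803. Of 22 genes of the G1 phase, 2 were higher in MycT and 0 in KrasT (5 and 3 without KrasT 1). With all 5 tumours, 9.1% of this list was called, near the 7.05% of all genes (25.3% without KrasT 1). The 2 were Ccne2, a cyclin of DNA synthesis entry, at 0.720, 0.461 and 0.182 and 7.80 and 4.48, and Cdkn2c, an inhibitor of CDK4 and CDK6, at 11.8, 6.14 and 9.03 and 84.1 and 34.8. The median of that list was −0.46, and 0.05 with equal sums outside the ribosomal protein genes. Cdkn2b, another CDK4 and CDK6 inhibitor, missed the threshold, at 124, 107 and 72.6 and 0.653 and 16.1 (adjusted p = 0.0510). Uhrf1, which couples DNA methylation to replication, was higher in MycT (5.596, 6.71 and 3.48 against 42.7 and 19.03). It was the 1 called of 16 genes of DNA methylation and polycomb (3 without KrasT 1), or 6.2%, near the 7.05% of all genes (25.3%).

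Cytosolic ribosomal protein genes took up 31.4% ± 3.83 of summed FPKM in KrasT (mean ± SD, n = 3; 35.7%, 28.5% and 29.8%) and 49.0% ± 1.75 in MycT (n = 2; 47.8% and 50.2%). The difference of −17.66 percentage points had an exact two-sided permutation p of 0.2, the smallest that 10 arrangements of 3 and 2 tumours allow. The 2 groups did not overlap. Gene by gene, 7 of 79 were higher in MycT and 0 in KrasT, where 3.7% of all genes were higher in MycT, and 37 of 79 without KrasT 1, where 12% were. The median difference was −1.11, and only −0.22 after quantile normalization, which forces the libraries to 1 distribution. Of 34 genes of the mitochondrial ribosome and the respiratory chain, 2 were higher in MycT: Mrpl12, a mitochondrial ribosomal protein, at 178, 126 and 101 in KrasT and 732 and 579 in MycT, and Cyc1 (cytochrome c1) at 108, 107 and 76.7 and 403 and 384. With all 5 tumours that is near the 3.7% of all genes. All 34 differences were negative, and 16 were called without KrasT 1, against 12%. Translation factors gave no call among 14 (1 without KrasT 1): Eif4e, the cap-binding protein, came nearest, at 37.6, 36.4 and 36.9 and 90.7 and 114 (limma adjusted p = 0.0504). Of 11 genes that host small nucleolar RNAs, 1 was higher in MycT (Snhg4) and 6 without KrasT 1, against 3.7% and 12% of all genes. All 11 differences were negative, with a median of −1.59. Rows for small nucleolar RNAs themselves took 0.034% ± 0.0272 (SD, n = 3) of summed FPKM in KrasT and 0.828% ± 0.175 (n = 2) in MycT. Of 22 such rows, 7 were higher in MycT, against 3.7% of all genes. Genes this short rest on few fragments per unit of FPKM.

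Among genes chosen by the same rule for the MycT side, which leaves out small RNAs and clone names, the largest difference was that of Guca2a (guanylin), a peptide hormone of intestinal epithelium, at 0.4999, 0 and 0 in KrasT and 126 and 177 in MycT (limma adjusted p = 0.00326). S100g, a calcium-binding protein of intestine, was at 1.57, 2.79 and 1.06 and 388 and 297. Bex1 and Bex4, small X-linked signalling proteins first found in brain, were at 1.83, 0.665 and 0.187 and 0.0798, 0.432 and 0.106 in KrasT and 182 and 92.1 and 172 and 18.5 in MycT. All 4 were at no more than 2.79 in any KrasT tumour. Ifitm1, an interferon-inducible membrane protein, was at 37.9, 16.1 and 22.6 and 814 and 811. Lpl (lipoprotein lipase) was at 2.47, 0.713 and 1.10 and 64.7 and 34.4 (adjusted p = 0.0214). Summed over 7 adipocyte genes with Lpl among them, the level was 58.0, 13 and 13.3 in KrasT and 135.3 and 119.4 in MycT. Fabp4, a fatty acid carrier of adipocytes and endothelium, made up much of it, at 47.0, 11.5 and 12.1 and 69.2 and 83.5, without being called (adjusted p = 0.114; 0.0114 without KrasT 1), while the defining markers Adipoq and Plin1 were at no more than 0.122 in any tumour. The part of such cells in the Lpl values was not tested. Gpnmb, a glycoprotein of pigment cells and macrophages, was at 0.742, 0.399 and 0.714 and 23.8 and 42.0. Ly6d and Lypd2, surface proteins of the LY6 family, and Spink3, a trypsin inhibitor, were lower in MycT 2 than in the unnumbered tumour, at 23.1 and 323, 15.6 and 58.1 and 16.5 and 149. Slc6a15 (an amino acid transporter), Nr1h5 (a nuclear receptor), Smpdl3b and Fam183b made up the 15.

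Some genes were on in 1 model and near absent in the other. At 10 scaled FPKM or more in every tumour of one model and 1 or less in every tumour of the other, 17 genes were restricted to KrasT and 24 to MycT; 9 of the latter are small RNAs or carry clone names. This describes levels in untreated tumours without a test and need not hold after doxycycline. Gpnmb, of the MycT genes, was then at 624, 23.2 and 40.0 in KrasT, on a scale common to 10 tumours. The KrasT genes included Hmga2, Synpr, Nptx1, Tnnt2, Cdh13 and Dusp5. Prm1, a sperm protamine, was also among them, at 10.1, 210.4 and 401, with a spread so wide that it was not called (limma adjusted p = 0.0534). So was the pseudogene Rpl14-ps1, at 27.2, 26.9 and 28.3 against 0.292 and 0. Its near-identical parent Rpl14 was at 2193, 1806 and 1843 in KrasT and 2753 and 5515 in MycT. Which of the 2 genes the pseudogene's fragments came from was not tested. Abcb1a, the drug-efflux pump P-glycoprotein, was a further KrasT gene, at 27.3, 18.2 and 22.2 against 0.147 and 0.808. Wnt5a, a non-canonical WNT ligand, was another, at 12.3, 19 and 10.53 against 0.239 and 0.662. The MycT genes included Guca2a, Bex4, Lypd2, Gpnmb, Nr1h5, Slc6a15 and Map4k1 (a kinase of blood cells). Kit, the receptor of stem cell factor, was another, at 0.441, 0.844 and 0.467 against 18.1 and 23.9; Kit and Abcb1a were picked after their values were seen.

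Within each model the tumours differed in cell state, and these genes were picked to show it after their values were seen. KrasT 2 and 3 had an epithelial and gastric pattern that KrasT 1 lacked. Cdh1 (E-cadherin) was at 4.32, 348 and 277 in KrasT and 13.4 and 129 in MycT, and Epcam, an epithelial adhesion molecule, at 6.68, 353 and 504 and 71.5 and 435. Krt7, a ductal keratin, was at 6.57, 3150.0 and 1196 and 6.53 and 116. In all 3 genes KrasT 1 lay below or beside the lowest MycT tumour and KrasT 2 and 3 well above it. The gastric genes Tff2 (a trefoil factor), Ctse (cathepsin E) and Gkn2 (gastrokine) were also low in KrasT 1 and high in KrasT 2 and 3. Tff2 was at 1.70, 2759.9 and 1048 and 4.71 and 63.7, and Gkn2 at 0, 394 and 234 and 0 and 1.57. None of 17 mucin, trefoil and gastric genes was called with all 5 tumours, and 8 were higher in KrasT without KrasT 1, where 13.3% of all genes were. Of 21 epithelial genes, 1 was called in each direction (Krt18 and Grhl2), with a median of 0.02, where 7.05% of all genes were called. Without KrasT 1 the median was 1.8, and 7 were higher in KrasT and 2 in MycT, against 13.3% and 12% of all genes. Krt18, a simple epithelial keratin, was at 1384, 5906 and 3615 and 202 and 205 and so was high in all 3 KrasT tumours. KrasT 1 instead had S100a4, a calcium-binding protein of motile mesenchymal cells, at 11237 against 282 and 108 in KrasT 2 and 3, and Fn1 (fibronectin) at 742 against 138 and 103.

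The MycT pair was split along other genes. The unnumbered tumour had the basal keratins Krt5 and Krt14 at 66.7 and 110.3, where MycT 2 had 0 and 0.194. It also had Tff3, a trefoil factor of goblet cells, at 6659 against 12.4, Cdkn2a, the tumour suppressor locus that encodes INK4A and ARF, at 334 against 4.5, and the interferon-stimulated genes Isg15 and Irf7 at 122 and 51.3 against 1.42 and 0.917. MycT 2 in turn had Peg10, an imprinted retrotransposon-derived gene, at 202 against 0.311, and Igfbp2, an IGF binding protein, at 285 against 16.7. None of the 21 interferon genes tested was called, nor any of 20 without KrasT 1.

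**Figure D3:**
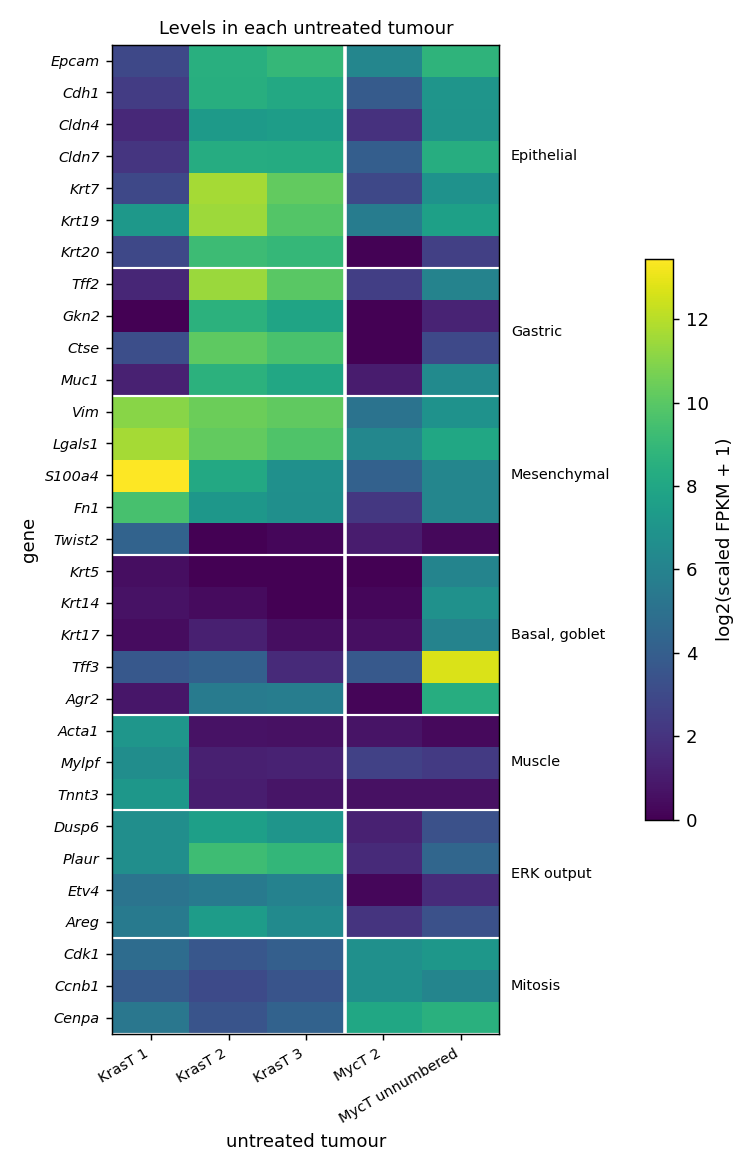
Level of 31 genes in each untreated tumour, as log2(scaled FPKM + 1), grouped by what they mark; the white vertical line parts KrasT from MycT. Most epithelial and gastric genes are low in KrasT 1 and high in KrasT 2 and 3, while Krt19 is also present in KrasT 1. Basal and goblet genes are high in the unnumbered MycT tumour alone, muscle genes in KrasT 1 alone, and the ERK output and mitosis rows follow the model.

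Markers of other cells in the pieces were uneven too, and their part in the differences above was not tested. Skeletal muscle genes were high in KrasT 1 only, Acta1 (skeletal actin) at 134 and Tnnt3 (a troponin) at 137 against at most 1.09 in any other tumour. The sum of 14 macrophage genes was 1509.0, 301.6 and 348.6 in KrasT and 1639.4 and 4234.7 in MycT, with KrasT 1 beside MycT 2. Cd68, a lysosomal protein of macrophages, was at 24.9, 32.0 and 26.9 and 59.9 and 72.0 (limma adjusted p = 0.0766). None of 13 macrophage genes tested was called. Without KrasT 1, 4 were higher in MycT, where 12% of all genes were. The sum of 9 neutrophil genes was 44.4, 13.9 and 75.7 in KrasT and 35.2 and 499.8 in MycT. Genes of NK, B and T cells summed to 20.8 at most in any of the tumours. The sum of 7 red cell and liver genes was 19.3, 402.7 and 342.8 in KrasT and 111.8 and 81.9 in MycT. None of 6 tested was called, and 4 globin and heme genes were higher in KrasT without KrasT 1, where 13.3% of all genes were. The sum of 12 endothelial genes was 56.5, 34.5 and 48.1 in KrasT and 19.1 and 69.2 in MycT, and none of 9 tested was called. The sum of 17 acinar digestive enzyme genes was 26.5, 375.5 and 211.8 in KrasT and 439.9 and 126.7 in MycT, and none of 15 tested was called. Cpa1, a carboxypeptidase, was at 1.22, 3.09 and 1.94 and 42.5 and 9.30 (limma adjusted p = 0.0589), and Amy2a5 was listed at 0 in all 5. The islet hormones Ins2 and Gcg were near 0 in KrasT 1, and Ins2 reached 44.5 in KrasT 2. The labelled tissue, pancreatic tumour, thus showed uneven levels of acinar and islet genes. The ductal keratin Krt7 was highest in KrasT 2 and 3, lower in the unnumbered MycT tumour and low in KrasT 1 and MycT 2. Of the junction and keratin genes, KrasT 1 showed few beyond Krt8, Krt18 and Krt19. Its levels of the factors Sox9, Gata6 and Foxa2 were near those of KrasT 2 and 3.

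**Figure D4:**
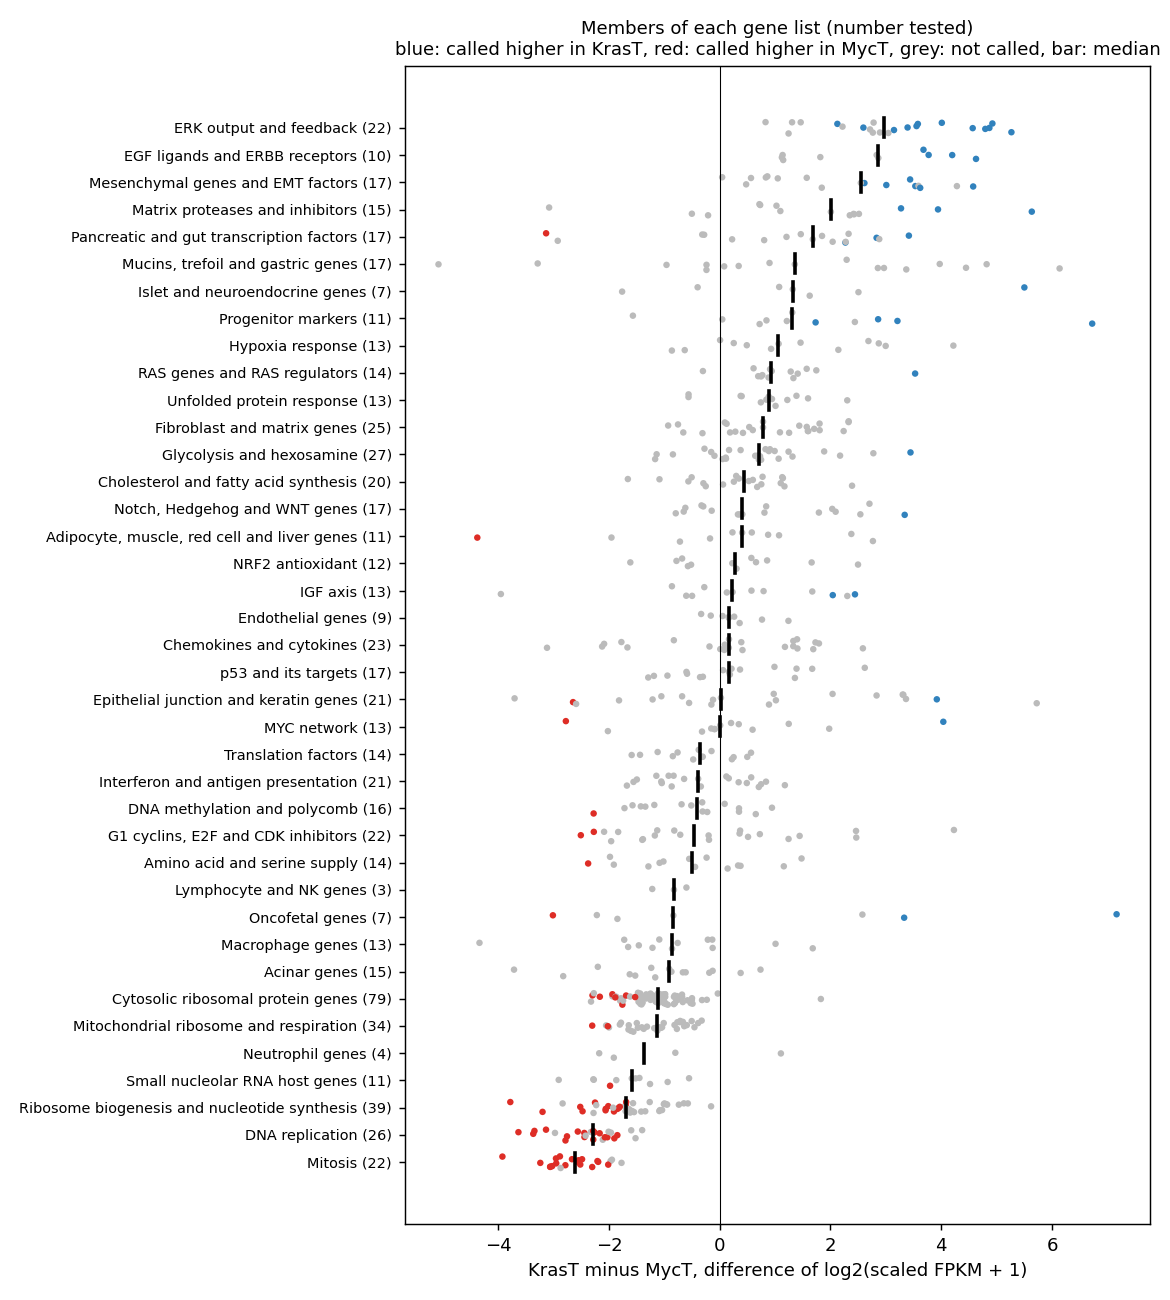
Difference between the models (KrasT minus MycT, log2(scaled FPKM + 1)) for each tested member of each gene list and of the ribosomal protein genes, with lists ordered by their median (black bar). The ERK output list lies wholly right of 0 with 12 blue members and the mitosis list wholly left with 18 red ones; lists of other cell types hold mostly grey points.

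The IGF genes named in the title of the series gave 2 calls among 13, both higher in KrasT (3 of 12 without KrasT 1), against 3.35% and 13.3% of all genes. Igf1r, the receptor of IGF1, was at 8.57, 6.51 and 5.82 in KrasT and 1.09 and 0.757 in MycT (2.04 ± 0.38, limma adjusted p = 0.0381). Igfbp4, a binding protein that holds IGFs outside the cell, was at 608, 351 and 352 and 57.4 and 103. The ligands were low and not called: Igf1 was at 0.780, 1.05 and 1.10 and 1.66 and 2.37 (adjusted p = 0.300), with both MycT tumours above the KrasT tumours, and Igf2 was at 1.15, 0.299 and 0.497 and 2.92 and 0.323. Metabolic lists gave few calls, where 7.05% of all genes were called (25.3% without KrasT 1). Of 27 glycolysis and hexosamine genes, 1 was higher in KrasT, the hexokinase Hk1 at 19.4, 101 and 61.8 and 4.44 and 2.99 (5 and 1 without KrasT 1), and of 14 amino acid genes, 1 was higher in MycT, the serine synthesis enzyme Psat1 at 23.9, 53.2 and 22.5 and 180.4 and 148 (2 without KrasT 1). Of 17 Notch, Hedgehog and WNT genes, Wnt5a was the 1 called (5 of 15 without KrasT 1, all higher in KrasT). No member was called among 13 hypoxia genes (6 higher in KrasT without KrasT 1), 20 of cholesterol and fatty acid synthesis, 13 of the unfolded protein response, 12 NRF2 targets, 17 of p53 and its targets, and 23 chemokines and cytokines. Without KrasT 1, 4 cholesterol and fatty acid genes, 1 of the unfolded protein response, 3 NRF2 targets and 5 chemokines and cytokines were higher in KrasT, and 1 cholesterol and fatty acid gene, 1 of the p53 list and 1 chemokine in MycT. Vegfa, the vascular growth factor, was at 33.3, 143 and 99.6 and 8.50 and 14.95 (adjusted p = 0.0626), and Trp53 (p53) at 24.4, 46.7 and 13.4 and 67.3 and 35.4.

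Whether these differences depended on the oncogene being on was asked with the tumours after doxycycline. Of the 880 called genes, 681 kept the sign of the difference there. A sign leaves out the size, and the share that kept it over all genes was not computed, so the count does not show that differences persisted. In 1 limma fit over all 10 tumours, the difference between the models changed with doxycycline for 62 of 14196 genes (0.437%), 36 with a larger KrasT minus MycT difference in untreated tumours (0.254%) and 26 with a smaller one (0.183%). At an unadjusted p under 0.05 there were 2747. Of the 62, 59 were also called between untreated tumours. That overlap is partly built in, because the interaction contains the difference between the same untreated tumours. In the same fit, 10 genes (0.0704%) differed between the models after doxycycline. The number to set beside it is 2885 of 14196 genes between untreated tumours in that fit, as the 880 come from the fit over 5 tumours. On the common scale of 10 tumours, Hmga2 was at 95.6, 121 and 244 in untreated KrasT and 2.91, 3.38 and 1.70 after doxycycline, and in MycT it was at 0.0332 and 0.136 and then 1.55 and 0.354. Its difference changed by 6.09 ± 0.64 (SE, adjusted p = 0.0138). Guca2a was at 118.0 and 170.2 in untreated MycT and 3.55 and 3.69 after doxycycline, and at no more than 0.453 in any KrasT tumour (−5.07 ± 0.41, adjusted p = 0.00525). Each gene was thus high in only 1 of the 4 groups. Prim1, at 70.3 and 69.9 in untreated MycT, was at 6.58 and 6.19 after doxycycline and between 3.04 and 7.51 in all 6 KrasT tumours. The number of genes rested on single tumours: it was 1496 without KrasT 1, 575 without the unnumbered MycT tumour, and 3 without untreated KrasT 2, doxycycline KrasT 3 or doxycycline MycT 1.

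**Figure D5:**
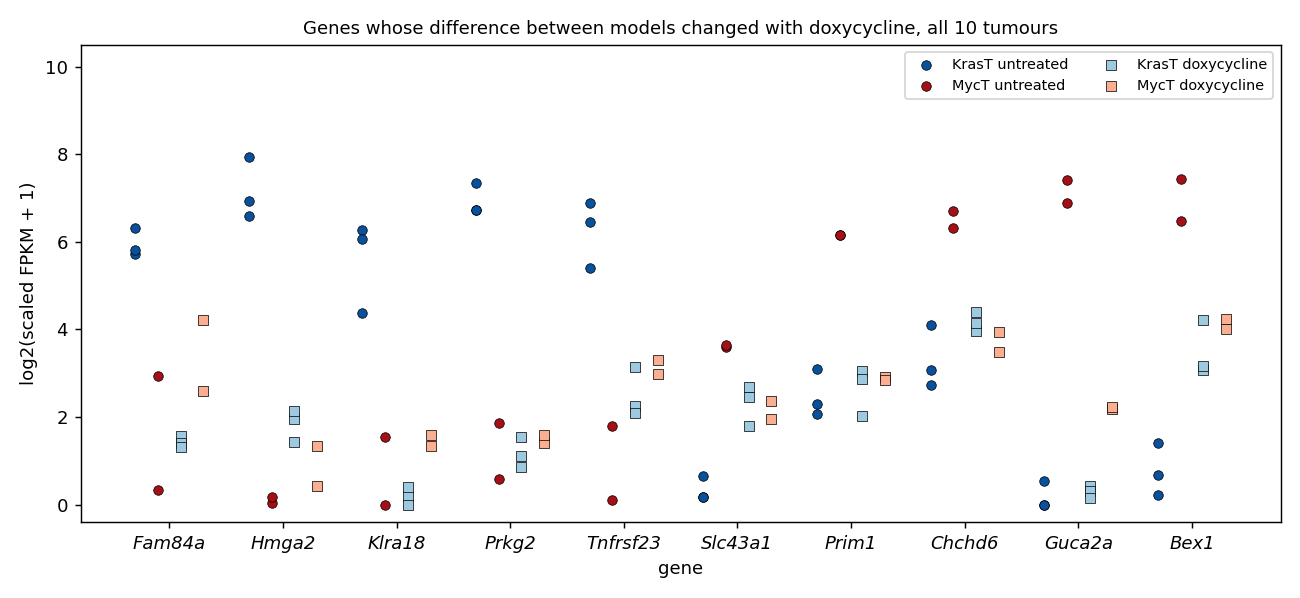
Level of the 10 named genes whose difference between models changed with doxycycline in all 10 tumours, as log2(FPKM scaled over 10 tumours + 1); circles are untreated and squares doxycycline tumours, blue KrasT and red MycT. Untreated KrasT tumours stand apart for Fam84a to Tnfrsf23 and untreated MycT tumours for Slc43a1 to Bex1, while the doxycycline tumours of both models lie closer together, except for Fam84a and Guca2a.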

How the data were processed

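RNA was sequenced from frozen tumour tissue with an Illumina TruSeq RNA kit on a HiSeq2000, per the labels' protocols. The values are FPKM, as the authors deposited them in 2 tables, 1 per model. The submitters' processing notes name cutadapt, TopHat and mm9. The sources used here name no program or annotation for the FPKM values and no strand setting. Depth in reads is unknown.

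Of 23951 rows, 27 with date names were left out. The 5 libraries were joined by symbol and scaled by the median ratio over 9228 genes above 1 FPKM in all. Genes with a scaled FPKM of at least 1 in at least 2 of 5 libraries were tested on log2(scaled FPKM + 1) in R 4.3.3 by limma 3.58.1, two-sided, with an eBayes trend; a call needs a p under 0.05 after Benjamini-Hochberg adjustment over all genes tested. A fold change on this scale understates that of low genes. The interaction with doxycycline used all 10 libraries, scaled alike. The steps were tested on simulated data. Columns were matched by animal number; 1 untreated MycT column matched no label and was used without a number. Python 3.11.15 and matplotlib 3.10.9 made the figures.

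The members, the 38 gene lists and the tests were chosen with earlier results of these data known, so the lists are no independent evidence. Genes named are the 15 largest called differences per direction without overlap and with a mean of at least 10 in the higher group, up to 3 called per list and direction (or the 2 of smallest p), 17 fixed genes (1 is not reported here), 5 interaction genes per direction and 8 restricted genes per model, leaving out predicted genes, clone names and small RNAs. List members beyond these were chosen after their values were seen. Alternatives were other scalings, a pseudocount of 0.1, other filters and spread models, a joint fit and leaving out each library.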

Additional observations from a re-analysis of the deposited data

Results flagged for a closer look

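For 62 genes the difference between the models itself differed between untreated and doxycycline tumours, by the interaction term of the limma fit over 10 tumours at an adjusted p under 0.05. The 10 genes named for it are given as untreated minus doxycycline differences of KrasT minus MycT, in log2 units. Fam84a gave 6.27 (adjusted p = 0.0428), Hmga2 6.09 (0.0138), the kinase Prkg2 6.03 (0.0138) and the decoy receptor Tnfrsf23 5.94 (0.0306). Klra18 gave 6.08 (0.0306), but it belongs to a family of near-identical receptor genes and its value is uncertain. Bex1 gave −5.55 (0.0214), Guca2a −5.07 (0.00525), the mitochondrial protein Chchd6 −3.67 (0.0397), Prim1 −3.43 (0.0464) and the amino acid transporter Slc43a1 −3.43 (0.0304). The first 5 were high in untreated KrasT tumours and the last 5 in untreated MycT tumours. The hosts of all doxycycline tumours also drank sucrose, and the agents cannot be told apart.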

How the results depend on the processing

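No paired analysis was possible because the tumours of the 2 models carry different animal numbers. The number of genes called (880) stayed within 1.5 times with quantile normalization (958), deposited FPKM (942), a pseudocount of 0.1 (703) or a mean of at least 5 (791). Without a filter on low values it was 42 (13 higher in KrasT, 29 in MycT), with library weights 2924 (1464 and 1460) and in the joint fit 2885 (1291 and 1594), of which 862 were among the 880. With equal sums outside the ribosomal protein genes, 738 were higher in KrasT. Leaving out 1 tumour gave 0 to 3053 genes (0 to 1604 higher in KrasT, 0 to 1449 in MycT); the highest came without KrasT 1, and 0 of the 880 were called in all 5 such fits. The interaction (62) gave 108 with deposited FPKM, 13 with a pseudocount of 0.1, 41 with a mean of at least 5, and 3 to 1496 without 1 tumour. Of the 80 named genes called, 80 were called without KrasT 1 and 2 without KrasT 2. Restricted genes were 3 for KrasT and 10 for MycT at 0.5 and 20 scaled FPKM. The difference in ribosomal protein share ran from −19.84 to −16.25 points without 1 tumour. Among the named genes, signs turned only in genes not called. Leaving out 1 tumour, the difference of Cldn5 ran from −0.34 (without MycT 2) to 2.78, S100a9 from −4.03 to 0.14, Oas1a from −3.47 to 0.06, Hras from −0.77 to 0.10, Cdkn2a from −4.85 to 1.12 and Epcam from −2.02 to 1.25, the last 5 lowest without MycT 2 and above 0 without the unnumbered MycT tumour (Epcam 0.60). Hras was at 0.01 with equal sums, and Epcam at 0.90 with library weights and 1.25 without KrasT 1. Beyond that, the cause of these shifts was not tested. Read depth, and so counting error, is unknown.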
